A study of Rattus norvegicus with 8 samples.

Results

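Sele, Selp, Icam1 and Vcam1, 4 adhesion genes of the blood vessel wall, were followed in the skin of Long-Evans rat pups. They were taken as all probes of 4 Ensembl gene IDs on the array (ENSRNOG00000002723 for Sele, ENSRNOG00000002794 for Selp, ENSRNOG00000020679 for Icam1 and ENSRNOG00000014333 for Vcam1), out of 19752 Ensembl IDs printed. The array names its probes by ID only, and the symbols of these 4 IDs were taken as given for this work. Together they have 9 probes, 3 for Sele and 2 for each other gene. The wounded group held 4 skin samples from pups that received a 3-mm cut on the back 3 days after birth, taken at the cut 36 h later. The control group held 4 skin samples from the matching site of pups without a cut, whose age at sampling was not stated for them separately. All samples were Long-Evans skin, the labels name no genotype, and no treatment other than the cut is recorded. Whether the samples came from different pups is not stated, so the p-values given here measure sample-to-sample spread, part of which may be technical.

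Leukocytes leave the blood in steps, and these 4 proteins serve on the endothelial side. E-selectin (Sele) and P-selectin (Selp) bind sugar-bearing ligands on leukocytes and let them roll along the vessel wall. P-selectin is stored ready-made in endothelial cells and platelets, while E-selectin is made anew when endothelium is activated. ICAM-1 (Icam1), bound by the β2 integrins of leukocytes, and VCAM-1 (Vcam1), bound by the integrin α4β1, then hold rolling cells firmly. Interleukin-1 and tumour necrosis factor, acting through NF-κB, are known inducers of these genes in cultured endothelial cells. ICAM-1 is also made by keratinocytes, fibroblasts and leukocytes.

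Each sample was read on 1 array in one colour, and the scanner software found 16930 to 20030 of 38948 probes on an array, that is, it could tell their spots from the surroundings. Pearson r across features, which are not independent replicates, was 0.955 to 0.978 among wounded samples, 0.961 to 0.981 among controls and 0.883 to 0.936 between the groups. The wounded arrays were scanned at positions 5 to 8 and the control arrays at positions 1 to 4 of 1 day, so scan position and group cannot be told apart. Wounded 4 and control 1 carry array numbers outside a common run that holds the other 6 arrays, so values within that run are also given. No ID could be matched to a symbol through the gene table used here, so neither endothelial, leukocyte and skin marker genes nor other genes of this pathway were analysed. In such bulk skin, more cells of a type and more RNA per cell cannot be told apart.

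The 3 genes, Selp, Sele and Icam1, were higher in wounded skin, and Vcam1 did not pass the test. By the brightest probe of each gene, 3 of 4 members rose and 0 fell at an adjusted p under 0.05 (limma, Benjamini-Hochberg over 12769 features). Over all features 8.01% rose and 9.65% fell. Sele entered the test only through the wounded arrays, since it was found on 0 of 4 control arrays. Among features found on all 8 arrays, 2 of the 3 remaining members passed. With Sele at its estimated lower bound, the median log2 fold change was 0.93 over the 4 genes, against -0.05 over all features. With plain subtraction of local background these medians were 2.27 and -0.09. The 2.27 rests partly on Sele, whose control spots were not found, so it is not a measured size. In 3 of the 4 genes every wounded value lay above every control value, which held for 8.78% of all features. Of the 9 probes, 7 had been found on at least 4 of the 8 arrays and were tested, against 49.9% of all probes. All 9 had a higher mean in wounded skin, but the share of all probes that did was not computed. Probes of the same gene are also not independent.

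Selp, the rolling receptor of activated platelets and endothelium, had the highest fitted rise of the 4. Its brighter probe, Rn30002484, read 248, 311, 363 and 547 intensity units above local background in wounded samples 1 to 4, against 13, 17, 24 and 35 in control samples 1 to 4. The spot was found on all 8 arrays, the groups lay far apart, and wounded 4 was the highest sample. After normalisation the log2 signal was 8.63 ± 0.53 in wounded skin and 6.30 ± 0.14 in control skin (SD, n = 4 each). The fitted rise was 5.04-fold with a 95% interval of 3.64 to 6.98, or 2.33 ± 0.22 on the log2 scale (SE), and its limma adjusted p was 5.16e-07. Of all features, 99.2% had a lower log2 fold change, and Selp stood at place 96 among the 1023 features that rose.

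The size of the Selp rise depended on how background was handled. The main values add an offset of 50 intensity units, which pulls dim spots together. With an offset of 10 the rise was 9.27-fold, and with plain subtraction of local background it was 16.0-fold. In the authors' deposited table the Selp probe averaged 8.44 in wounded skin and 4.40 in control skin on a log2 scale, a difference of 4.04, or 16.4-fold. The rise passed the limma test under each of these settings. Within the 6 arrays of the common run it was 4.11-fold (limma adjusted p = 1.70e-05).

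The other Selp probe, ENSRNOG00000002794, was near background throughout. It read 18, 36, 24 and 32 units above background in wounded samples 1 to 4, against -3, 0, 5 and 2 in control samples 1 to 4. Every wounded value lay above every control value, but the spot was found on 1 of 4 wounded arrays and 0 of 4 control arrays, too few for testing.

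**Figure D1:**
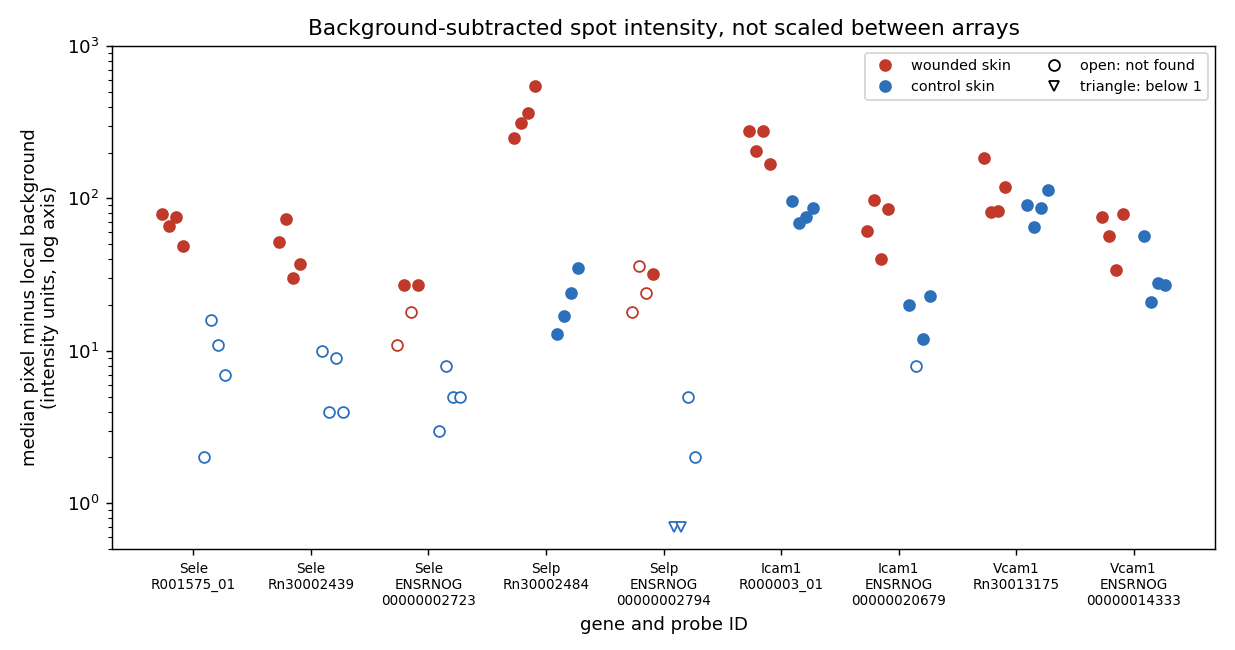
Median pixel minus local background (intensity units, log axis) for the 9 probes, 4 wounded and 4 control samples each, in order of sample number. Open symbols were not found by the scanner software, and triangles at the bottom are values below 1. The Selp probe Rn30002484 runs from 248 to 547 in wounded skin and from 13 to 35 in control skin, while the Vcam1 probe Rn30013175 overlaps between the groups.

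Sele, the selectin made by activated endothelium, passed from not found to found. Probe R001575_01 read 79, 66, 76 and 49 units above background in wounded samples 1 to 4, against 2, 16, 11 and 7 in control samples 1 to 4. It was found on 4 of 4 wounded arrays and 0 of 4 control arrays, a pattern shown by 1.27% of all features. Its normalised log2 signal was 6.94 ± 0.18 in wounded skin and 6.05 ± 0.17 in control skin (SD, n = 4 each). Since the control spots were not found, their signal is only an upper limit, and Sele was at least 1.85-fold higher in wounded skin (limma adjusted p = 2.43e-05). The probe entered the test only through the wounded arrays, on which it was found. With no filter on dim probes its limma adjusted p was 1.61e-05. For this bound, each control array counted with the probe's measured signal or, if higher, with the array's dimmest found probe. The measured signal was the one used on every control array, so the bound equals the fitted value.

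The second Sele probe, Rn30002439, gave a like pattern. It read 52, 73, 30 and 37 units in wounded samples 1 to 4, against 10, 4, 9 and 4 in control samples 1 to 4. It too was found on 4 of 4 wounded and 0 of 4 control arrays. Its lower bound was estimated at 1.63-fold higher in wounded skin (adjusted p = 3.45e-05 in limma over 19444 probes, of which 8.09% rose). This probe likewise entered the test only through the wounded arrays, and with no filter its limma adjusted p was 3.14e-05. Within the common run the adjusted p was 0.000515 in limma. The third probe, ENSRNOG00000002723, was found on 2 of 4 wounded and 0 of 4 control arrays and was not tested. It read 11, 27, 18 and 27 units in wounded samples 1 to 4, against 3, 8, 5 and 5 in control samples 1 to 4. All 3 Sele probes thus had wounded values wholly above control values. This held for 9% of all tested probes, which leave out the third Sele probe. The share is not a like comparison, since the tested Sele probes passed the filter only through the wounded arrays. None of the control spots of the 3 Sele probes was found, so the control values lie near background.

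The fitted Sele change also grew as the offset shrank, to a log2 fold change of 1.68 with an offset of 10, 3.15 with plain subtraction and 3.19 in the authors' deposited table. These sizes rest on control spots that were not found, so they measure no fold change. Within the 6 arrays of the common run Sele also passed (limma adjusted p = 0.000655). A difference between the changes of Sele and Selp was not tested, since Sele has only a bound.

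**Figure D2:**
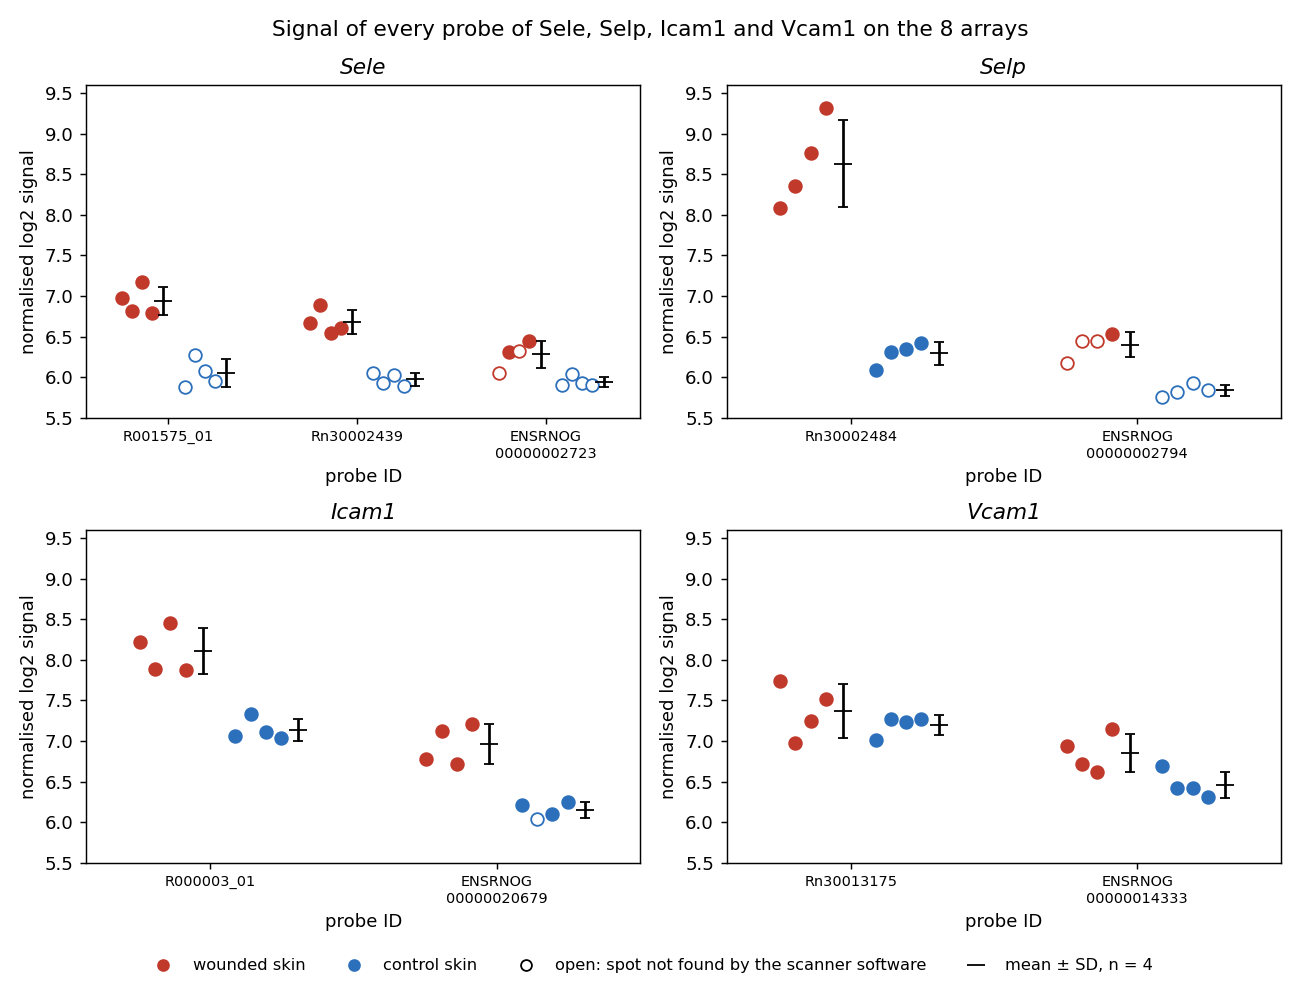
Normalised log2 signal of each probe on the 4 wounded (red) and 4 control (blue) arrays, in order of sample number, with the mean ± SD beside them. Open points were not found. The groups part for every probe of Sele, Selp and Icam1 and overlap for both probes of Vcam1.

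Icam1, the ligand of β2 integrins, rose by both of its probes. Probe R000003_01 read 277, 206, 278 and 167 units above background in wounded samples 1 to 4, against 96, 69, 75 and 87 in control samples 1 to 4. It was found on all 8 arrays, and the lowest wounded value lay above the highest control value. Its normalised log2 signal was 8.11 ± 0.28 in wounded skin and 7.14 ± 0.14 in control skin (SD, n = 4 each). It was 1.96-fold higher in wounded skin with a 95% interval of 1.5 to 2.57, or 0.97 ± 0.18 on the log2 scale (SE, limma adjusted p = 0.000946). Within the common run it was 2.04-fold (limma adjusted p = 0.00342).

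The dimmer Icam1 probe, ENSRNOG00000020679, read 61, 97, 40 and 85 units in wounded samples 1 to 4, against 20, 8, 12 and 23 in control samples 1 to 4. The groups again did not overlap, which held for 9% of all tested probes. It was 1.75-fold higher in wounded skin, or 0.81 ± 0.13 on the log2 scale (SE, adjusted p = 0.000164 in limma over all probes). As for Selp, the size grew with a smaller offset, to 2.72-fold with an offset of 10, 4.81-fold with plain subtraction and 4.48-fold in the authors' deposited table. The spot was found on 4 of 4 wounded and 3 of 4 control arrays, so these sizes rest partly on control 2, where it was not found. Within the common run the probe was 1.68-fold higher in wounded skin (limma adjusted p = 0.00202). The 2 probes ordered the wounded samples differently. Wounded 3 had the highest signal by the first probe and the lowest by the second.

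Vcam1, the ligand of α4β1 integrin, did not pass the main test by either of its probes. Probe Rn30013175 read 183, 81, 83 and 119 units above background in wounded samples 1 to 4, against 90, 65, 86 and 114 in control samples 1 to 4. The groups overlapped. Its normalised log2 signal exceeded the highest control in 2 of 4 wounded samples, 7.74 in wounded 1 and 7.51 in wounded 4, and wounded 2, at 6.97, was below all controls. The means were 7.37 ± 0.33 in wounded skin and 7.20 ± 0.13 in control skin (SD, n = 4 each). The fold change was 1.13 with a 95% interval of 0.866 to 1.47 (limma adjusted p = 0.561). Within the common run it was 1.04-fold (limma adjusted p = 0.868), and without wounded 1 the log2 fold change was 0.05.

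The other Vcam1 probe, ENSRNOG00000014333, gave a larger difference. It read 75, 57, 34 and 79 units in wounded samples 1 to 4, against 57, 21, 28 and 27 in control samples 1 to 4. Wounded 3 fell within the control range by normalised signal, at 6.62, against 6.69 in control 1. The log2 difference was 0.39 ± 0.14 (SE), or 1.31-fold, with an adjusted p of 0.0616 in limma over all probes. It lay just outside the threshold and passed under 6 of 22 alternatives, among them leaving out wounded 3 (adjusted p = 0.0345) or control 1 (adjusted p = 0.0330) in limma. With wounded 4 and control 1, the arrays outside the common run, as a block it passed too (limma adjusted p = 0.0205). Within the common run it was 1.29-fold (limma adjusted p = 0.0637). Its size also grew with a smaller offset, to 1.57-fold with an offset of 10, 1.89-fold with plain subtraction and 1.83-fold in the authors' deposited table. It did not pass the limma test under any of these 3 settings (adjusted p = 0.0635, 0.0701 and 0.0806).

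**Figure D3:**
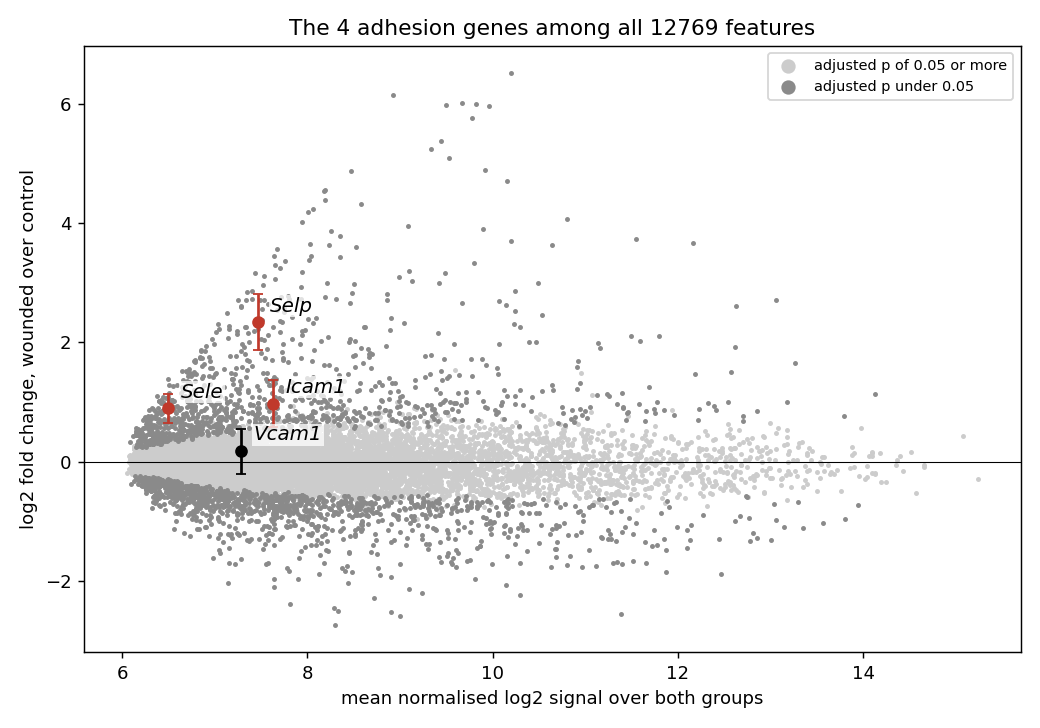
Log2 fold change (wounded over control) against mean normalised log2 signal for all 12769 features, with the 4 adhesion genes and their 95% intervals. Selp lies at 2.33, Icam1 at 0.97 and Sele, whose value is an estimated bound, at 0.89. The interval of Vcam1, at 0.17 by its brightest probe, spans 0.

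The changes of Icam1 and Vcam1 were then compared within arrays, as the log2 signal of the brightest Icam1 probe minus that of the brightest Vcam1 probe. This compares changes, not levels, since signals of different probes are not on one scale. The value was 0.48, 0.91, 1.21 and 0.37 in wounded samples 1 to 4, against 0.05, 0.06, -0.12 and -0.24 in control samples 1 to 4. Every wounded array lay above every control array. The Icam1 change exceeded the Vcam1 change by 0.80 on the log2 scale (2-sided exact permutation p = 0.0286, the smallest that 4 against 4 samples allow). It was the 1 of 2 planned differences that could be tested. The choice of probe mattered. With the other Vcam1 probe the excess was 0.58, with the other Icam1 probe 0.64 and with both 0.42, each with a 2-sided exact permutation p of 0.0571. With plain subtraction of local background the excess was 2.01 for the other Icam1 probe (2-sided exact permutation p = 0.0286) and 0.48 for the other Vcam1 probe (2-sided exact permutation p = 0.314). In the main processing an unequal change of the 2 genes thus passed only with the brightest probe of each. After plain subtraction it passed with the brighter Vcam1 probe and either Icam1 probe. With the dimmer Vcam1 probe it passed in neither processing. Within the common run the excess by the brightest probes was 0.96 (2-sided exact permutation p = 0.1, the smallest that 3 against 3 allow).

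**Figure D4:**
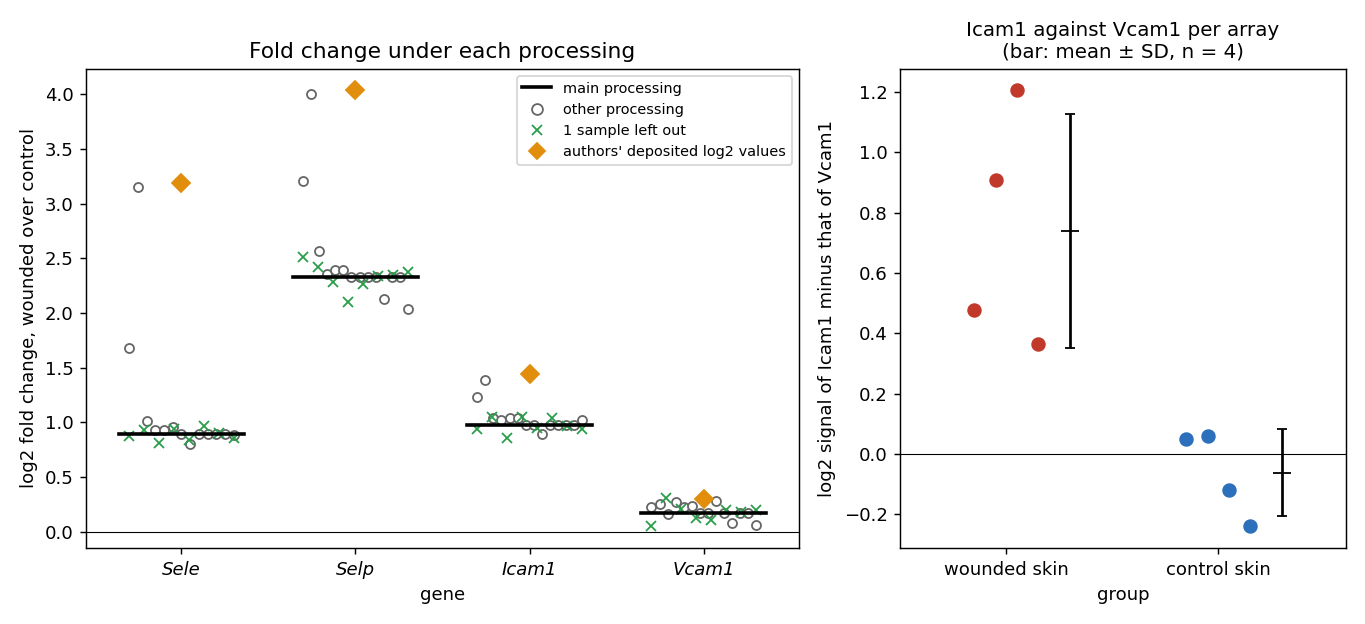
Left, log2 fold change (wounded over control) of each gene under the main processing (bar), other processing (open circles), with 1 sample left out (crosses) and in the authors' deposited values (diamonds). Selp and Sele move most, to 4.04 and 3.19, though the Sele size rests on control spots that were not found. Vcam1 stays between 0.05 and 0.30 by its brightest probe, while its other probe, not drawn, ran from 0.29 to 0.91. Right, log2 signal of Icam1 minus that of Vcam1 on each array with the mean ± SD, wounded at 0.37 to 1.21 and control at -0.24 to 0.06.

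The promoter windows of Icam1 and Vcam1 are shown for their NF-κB motifs. Whether these motifs bear on the difference in response by the brightest probes was not tested. The sequences are 300-base windows around a start site from RefSeq on GRCr8, read 5′ to 3′ in the direction of the gene. The Icam1 window is chr8:27829595-27829894 on the plus strand and the Vcam1 window chr2:206742734-206743033 on the minus strand. Capitals mark matches, on either strand, to a degenerate 10-base NF-κB consensus or to GGAAATTCC. The consensus was searched as GGRNNNYYCC, where R is A or G, Y is C or T and N is any base.
Icam1: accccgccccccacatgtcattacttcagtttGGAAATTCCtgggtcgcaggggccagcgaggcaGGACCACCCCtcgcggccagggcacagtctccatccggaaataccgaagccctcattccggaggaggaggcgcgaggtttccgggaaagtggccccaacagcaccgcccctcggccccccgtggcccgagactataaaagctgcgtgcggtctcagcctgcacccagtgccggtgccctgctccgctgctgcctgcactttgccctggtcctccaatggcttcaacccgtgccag
Vcam1: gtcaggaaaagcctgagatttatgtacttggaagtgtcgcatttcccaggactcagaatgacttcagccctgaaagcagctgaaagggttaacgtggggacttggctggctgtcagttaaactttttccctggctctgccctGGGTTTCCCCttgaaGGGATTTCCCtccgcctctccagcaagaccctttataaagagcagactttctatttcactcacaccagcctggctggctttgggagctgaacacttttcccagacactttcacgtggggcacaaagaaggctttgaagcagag
The Vcam1 window holds a pair of consensus matches, GGGTTTCCCC at bases 143 to 152 and GGGATTTCCC at bases 158 to 167, counted from the window's first base. The second matches on both strands. The Icam1 window holds GGAAATTCC at bases 33 to 41 and a consensus match, GGACCACCCC, at bases 66 to 75. Each also holds TATAAA further down, from base 198 in Icam1 and base 191 in Vcam1. Of 33469 such windows, 26.3% hold the consensus, 0.332% hold GGAAATTCC and 14.2% hold TATAAA, so a consensus match alone is common. GGAAATTCC was a fixed sequence in the search, and its share is no test of the Icam1 match. The RefSeq gene record begins 93 bases into the Icam1 window and 250 bases into the Vcam1 window, so TATAAA of Icam1 lies inside the record. The Sele window held 0 matches to any of these motifs, and it begins 267 bases inside the RefSeq gene record. A match is a run of letters, and binding was not measured here. The window of Selp was not analysed here.

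The profiles of other features over the 8 samples were set beside those of the 4 genes. The ID most like Selp was ENSRNOG00000024243, with a Pearson r of 0.992, and it rose 2.12-fold. The ID most like Sele was ENSRNOG00000007545, with a Pearson r of 0.991, and it rose 4.94-fold. Of 11354 other IDs, 371 had an r above 0.9 with Selp, 319 with Sele, 296 with Icam1 and 4 with Vcam1. All these points share the same arrays and the same split into groups, which alone lifts r for any pair of features that rose.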

How the data were processed

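Per the labels' protocols, biotin-labelled cRNA was made from the total RNA of 8 skin samples and put on Rat MI-Ready arrays. Per the file headers, GenePix Pro 4.1.1.4 quantified scans made at 635 nm and applied no normalization. Spot intensity, local background intensity and a flag for found, not found and bad spots stand in the deposited scanner files. The authors also deposited log2 values for 16198 IDs. Where the subtracted spot was at least 1, 99.9% to 100% of them per array equalled log2 of the background-subtracted median pixel within 0.02 once a constant was added for that array, so scale and direction are known and no centring of genes was seen. Their column medians were 6.98 to 7.06.

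With limma 3.58.1 in R 4.3.3, median pixels were background-corrected (normexp, offset 50), 1240 control or nameless spots of 40320 and 65 bad spots were left out, and log2 values were quantile normalized and averaged per probe. Probes found on at least 4 of 8 arrays (19444 of 38948) were kept, and the brightest per Ensembl ID was used, giving 12769 features. Wounded and control samples were compared with lmFit and eBayes (trend), 2-sided, with Benjamini-Hochberg adjustment over all features, or over all kept probes for single probes. The number of arrays limits the precision. The fit was tested on simulated data. Named were all 4 genes with all probes and, by highest Pearson r over the samples, the most alike ID of each gene, of which at most 2 that rose are printed. The members, lists and tests were chosen with earlier results of these data known. Lists of adhesion, NF-κB and cell type marker genes could not be matched, since 0 of 47357 rows of the RefSeq gene table (GRCr8) give an Ensembl ID. Alternatives covered background, normalization, filters, probes, the authors' values, variance model, array weights, blocks and samples left out. Same-numbered samples had deviations from their group means correlated at -0.28 to -0.01, so the main fit did not pair samples by number. Such values cannot exclude a pairing in the design. Wounded 4 and control 1, both outside the common run of array numbers, had deviations correlated at 0.40.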

Additional observations from a re-analysis of the deposited data

Results flagged for a closer look

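In 18 sets of 4 values (9 probes in 2 groups), 1 sample stood far from the other 3 of its group, where chance sets apart about 1 in 20 such sets. The normalised log2 signal of the Vcam1 probe Rn30013175 was 7.01 in control 1, against 7.23 to 7.27 in the other controls. Control 1 also lies outside the common run of array numbers. Without it the Vcam1 log2 fold change was 0.11 (limma adjusted p = 0.736).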

How the results depend on the processing

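Of 229 values over 32 alternatives, 211 kept their direction and their side of the threshold, 12 lost the call, 6 gained it and 0 reversed. Of the 4 genes, 3 passed as higher and 0 as lower in each alternative except with probes found on all 8 arrays, where Sele was not tested and 2 passed. The 6 gains were all of the second Vcam1 probe, with a mean pixel, cyclic loess, array weights, the 2 arrays outside the run as a block, and without wounded 3 or control 1. The 12 losses were all of the Icam1 change minus the Vcam1 change. It was 0.96 within the common run, where 3 against 3 arrays cannot reach the threshold, so that loss says nothing about stability. It was 0.64 with the other Icam1 probe, 0.58 with the other Vcam1 probe and 0.42 with both. With the other Vcam1 probe and with both it was 0.48 and 1.35 after plain subtraction and 0.57 and 1.29 in the authors' values. With the other Icam1 probe it kept its call there, at 2.01 and 1.87. These 10 alternatives were added once the data were known. Leaving out 1 sample in turn gave 0.65 to 0.93, and the 4 losses there came without a control, with an exact permutation p of 0.0571. With 1 sample left out, the brightest probe gave a log2 fold change of 2.11 to 2.52 for Selp and 0.86 to 1.05 for Icam1. For Vcam1 the brightest probe gave 0.05 to 0.30 and the other probe 0.29 to 0.47. Sele, with only a bound, kept its call. In a fit with a replicate block by sample number, which leaves each estimate as it was by construction (2.33 for Selp), no call changed, with limma adjusted p of 2.59e-08 for Selp, 1.46e-05 for Sele, 0.00199 for Icam1 and 0.623 for Vcam1. No paired form of the within-array difference was run. No value is given for the Sele change minus the Selp change, since Sele has only a bound. Median scaling and cyclic loess kept each gene's direction and call. The probes of these genes lie close to background, so fold sizes are least certain where control spots are dim.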
